A study of Mus musculus with 6 samples.

Results

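The heat shock and DnaJ chaperone genes were taken by symbol. They are the protein-coding mouse genes in RefSeq's annotation of GRCm38.p6 (mm10) whose symbols begin with Hsp90, Hspa, Hspb, Hspd, Hspe, Hsph, Dnaja, Dnajb or Dnajc, without Hspa5 and Hspbap1. This rule gave 72 of 21883 protein-coding genes. Of 193148 accessible regions measured in every library, 486 overlapped the bounds of these genes extended by 10000 bp, and 71 of the 72 genes had at least 1 region. Dnajb12 had none. The genes comprised 3 Hsp90, 12 Hspa, 8 Hspb, 2 Hspd or Hspe, 1 Hsph, 4 Dnaja, 13 Dnajb and 28 Dnajc genes. Hspbp1, which encodes a nucleotide exchange factor and no small heat shock protein, entered by its symbol and is given on its own.

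Hsp70 proteins, encoded by the Hspa genes, bind unfolded polypeptides in cycles of ATP hydrolysis that the J domain of a DnaJ protein triggers and that exchange factors such as Hsph1 reset. Hsp90 proteins mature folded clients such as kinases and steroid receptors, small heat shock proteins of the Hspb family hold unfolding proteins without ATP, and Hspd1 with Hspe1 forms the folding chamber of mitochondria. Under protein stress, heat shock factor 1 (Hsf1) binds repeats of the bases GAA and their complement in the promoters of the inducible members. In neurons, constitutive members serve synapses: Hspa8 strips clathrin from vesicles with the help of Dnajc6 (auxilin), and Dnajc5 (cysteine string protein) sits on synaptic vesicles.

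The study measured open chromatin by ATAC-seq, which counts DNA fragments released by a transposase, in nuclei of dopaminergic neurons sorted from the mouse ventral tegmental area. Ogtflox+/Y mice, the Ogt knockdown group, carried a floxed allele of Ogt, the X-linked gene for the enzyme that attaches N-acetylglucosamine to proteins, and Ogtflox-/Y mice did not. Into this region of both genotypes went the viruses AAV-TH-Cre, read here as Cre recombinase driven by the promoter of tyrosine hydroxylase, and AAV-DIO-H2B-EGFP, a Cre-dependent nuclear fluorescent reporter, and EGFP+ nuclei were sorted. Each genotype had 3 libraries, and whether these came from separate animals is not given, so the p-values cover the spread among the libraries at hand, part or all of which may be technical. Ogtflox+/Y replicate 1 carries the floxed genotype in its genotype label, while its title names Ogtflox-/Y. It was kept with Ogtflox+/Y, and results are also given without it. The sources used here do not give the ages of the mice.

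Library totals were 41025728 to 42678585 reads in Ogtflox+/Y and 34384319 to 66853563 reads in Ogtflox-/Y, and 31.0% to 37.0% of reads in Ogtflox+/Y and 36.6% to 38.2% in Ogtflox-/Y fell in regions. Levels are CPM, counts scaled to a common number of reads in regions, with TMM normalization. At 3 reads a region stands at 0.117 to 0.237 CPM, by library, a limit that covers counting error only. A region was called higher or lower where the quasi-likelihood test of edgeR gave a Benjamini-Hochberg adjusted p under 0.05 over 191693 regions. By this rule 15.4% of all regions were called higher and 12.7% lower in Ogtflox+/Y. Values are given in the order of replicates 1, 2 and 3, and log2 fold changes of Ogtflox+/Y over Ogtflox-/Y with their SE. The most accessible region of Ogt itself had 17.9, 14.96 and 14.7 CPM in the Ogtflox+/Y libraries, against 11.1, 11.1 and 9.08 CPM in the Ogtflox-/Y libraries. It was higher in every Ogtflox+/Y library (log2 fold change 0.61 ± 0.14, edgeR adjusted p = 0.00322), and since the labels do not place the floxed part, it does not check the deletion. All marker genes with a region had reads in every library. Over the main regions of all protein-coding genes 33.2% were called higher and 8.91% lower. Of the dopaminergic markers, 2 of 9 main regions were called higher and 0 lower, with summed levels of 278 to 332 CPM in Ogtflox+/Y and 269 to 470 CPM in Ogtflox-/Y. These sums rest mostly on Th, which was not called. Its main region had 238, 182 and 172 CPM in the Ogtflox+/Y libraries, against 178, 378 and 245 CPM in the Ogtflox-/Y libraries. Of the GABAergic markers, 4 of 5 were higher, with sums of 70.8 to 89.9 CPM in Ogtflox+/Y and 43.0 to 56.0 CPM in Ogtflox-/Y. Of 6 microglial markers 1 was higher and 1 lower, and of 6 endothelial and mural markers 1 was higher and 3 lower. The higher microglial region stands for Aif1 but lies 5714 bp outside that gene. In bulk nuclei, more nuclei of a type and wider opening in each nucleus cannot be told apart.

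Promoter windows of RefSeq on GRCm38.p6, which run from 250 bases before a gene's start to 50 after it, matched 58 of the 72 genes with 75 windows. The Hsf1 element was searched on both strands as GAANNTTC and TTCNNGAA, which overlap where GAA repeats follow one another. It was present in 24.0% of the chaperone windows and in 13.7% of all 21262 windows of protein-coding genes. Some genes have more than 1 window, and counted by gene the shares were 27.6% and 15.7%. The longer form of 3 units (GAANNTTC followed at once by NNGAA, or TTCNNGAA followed at once by NNTTC), which contains the shorter, was in 8.0% of chaperone windows and 0.517% of all windows. Counted by gene it was in 6.90% and 0.595%, and the chaperone genes that held it were Dnajb6, Hspd1, Hspe1 and Hsph1. Windows of these genes are shown first, because they match the element over the longest stretch, with all matches in capitals. The window of Hspe1 overlaps that of Hspd1 on the opposite strand and holds the same element.
Hsph1, chr5:149636266-149636565, minus strand: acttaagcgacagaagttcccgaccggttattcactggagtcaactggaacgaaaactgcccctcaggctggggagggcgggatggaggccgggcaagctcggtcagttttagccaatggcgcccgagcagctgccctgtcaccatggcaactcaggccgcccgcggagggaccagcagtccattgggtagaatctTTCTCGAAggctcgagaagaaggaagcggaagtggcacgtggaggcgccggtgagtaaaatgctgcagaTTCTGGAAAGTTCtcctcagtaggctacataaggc
Hspd1, chr1:55087883-55088182, minus strand: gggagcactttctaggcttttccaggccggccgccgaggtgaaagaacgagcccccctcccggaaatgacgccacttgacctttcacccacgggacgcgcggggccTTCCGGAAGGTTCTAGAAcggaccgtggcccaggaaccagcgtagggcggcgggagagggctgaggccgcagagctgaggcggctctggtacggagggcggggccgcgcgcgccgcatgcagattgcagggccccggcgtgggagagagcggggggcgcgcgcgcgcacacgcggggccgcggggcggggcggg
Dnajb6, chr5:29735648-29735947, plus strand: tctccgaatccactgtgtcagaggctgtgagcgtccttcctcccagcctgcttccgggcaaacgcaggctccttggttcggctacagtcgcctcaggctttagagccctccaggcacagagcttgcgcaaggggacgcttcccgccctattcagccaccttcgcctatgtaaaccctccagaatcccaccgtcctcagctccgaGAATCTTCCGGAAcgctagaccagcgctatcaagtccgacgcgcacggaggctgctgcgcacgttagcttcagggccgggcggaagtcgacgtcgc
The inducible Hsp70 genes Hspa1a and Hspa1b are shown as a pair because their windows were identical at 296 of 300 bases. Reads from one could be placed on the other, so the values of both are uncertain.
Hspa1a, chr17:34972107-34972406, minus strand: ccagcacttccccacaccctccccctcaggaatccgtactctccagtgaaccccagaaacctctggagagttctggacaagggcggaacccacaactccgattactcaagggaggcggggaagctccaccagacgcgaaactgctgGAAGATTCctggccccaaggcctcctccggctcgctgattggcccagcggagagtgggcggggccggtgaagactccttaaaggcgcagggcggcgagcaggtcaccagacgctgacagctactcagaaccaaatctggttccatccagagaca
Hspa1b, chr17:34959189-34959488, minus strand: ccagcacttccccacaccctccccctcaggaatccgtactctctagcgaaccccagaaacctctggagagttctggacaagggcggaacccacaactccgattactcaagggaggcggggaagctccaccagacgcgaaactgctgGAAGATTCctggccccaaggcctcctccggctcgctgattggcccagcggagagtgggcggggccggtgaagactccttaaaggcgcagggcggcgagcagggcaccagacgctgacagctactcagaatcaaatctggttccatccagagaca
Dnaja4 and Hspb8 are shown as members with an element whose main region was called higher, and Dnajb13 as the member whose main region fell most. The Dnajb13 window had no match, which says only that these letters are not in it.
Dnaja4, chr9:54699309-54699608, plus strand: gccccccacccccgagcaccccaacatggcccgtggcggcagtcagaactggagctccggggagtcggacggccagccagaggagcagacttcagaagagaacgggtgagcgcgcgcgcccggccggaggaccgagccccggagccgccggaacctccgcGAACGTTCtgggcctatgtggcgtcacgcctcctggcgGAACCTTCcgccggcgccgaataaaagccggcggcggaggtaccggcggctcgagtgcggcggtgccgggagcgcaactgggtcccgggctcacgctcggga
Hspb8, chr5:116422815-116423114, minus strand: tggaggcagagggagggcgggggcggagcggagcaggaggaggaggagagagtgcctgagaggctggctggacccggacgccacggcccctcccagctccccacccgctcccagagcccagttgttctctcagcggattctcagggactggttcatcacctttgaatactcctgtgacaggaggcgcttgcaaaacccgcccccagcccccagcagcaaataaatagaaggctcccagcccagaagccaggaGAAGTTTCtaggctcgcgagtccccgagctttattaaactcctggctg
Dnajb13, chr7:100514766-100515065, minus strand: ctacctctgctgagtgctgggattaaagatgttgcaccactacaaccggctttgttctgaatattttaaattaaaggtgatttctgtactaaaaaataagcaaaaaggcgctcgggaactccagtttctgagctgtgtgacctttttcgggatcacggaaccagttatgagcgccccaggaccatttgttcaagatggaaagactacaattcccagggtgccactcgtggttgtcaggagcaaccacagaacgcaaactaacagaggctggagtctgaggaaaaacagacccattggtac
The chaperone windows were also rich in G and C, with a median of 62.3% against 56.3% over all windows. The letters GGGCGG, the core of a GC box, were in 72.0% of chaperone windows and 46.2% of all. The letters CCAAT were in 38.7% and 38.2%, and TATAAA in 5.33% and 12.6%.

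The main region of a gene, its most accessible region within 1000 bp of the gene bounds, stands for the gene in what follows; Dnajb7 and Dnajb8 had none this close and are represented by one within 10000 bp. The 71 genes had 69 distinct main regions, 48 of which overlapped a RefSeq promoter window. Which part of a gene a region covers (exon, intron or UTR) was not determined. Chaperone main regions were more often higher than lower in Ogtflox+/Y: 28 of 69 were called higher (40.6%) and 4 lower (5.80%), where 33.2% and 8.91% of the 15750 main regions of all protein-coding genes were. Their median log2 fold change was 0.25 and that of all main regions 0.20, so the share and the shift were near those of main regions in general and are no result about chaperone genes in particular. Without Ogtflox+/Y replicate 1, 23 were higher and 4 lower. The 2 groups of libraries did not overlap at 39 of the 69 main regions (56.5%, against 54.5% of all main regions). Changes were mostly small: only Hspb2 and Dnajb13, among the 69, moved 2-fold or more. Whether gains were called depended on scaling: with library totals, which put the median of all regions at -0.27 in place of -0.01, 3 main regions were called higher and 7 lower.

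**Figure D1:**
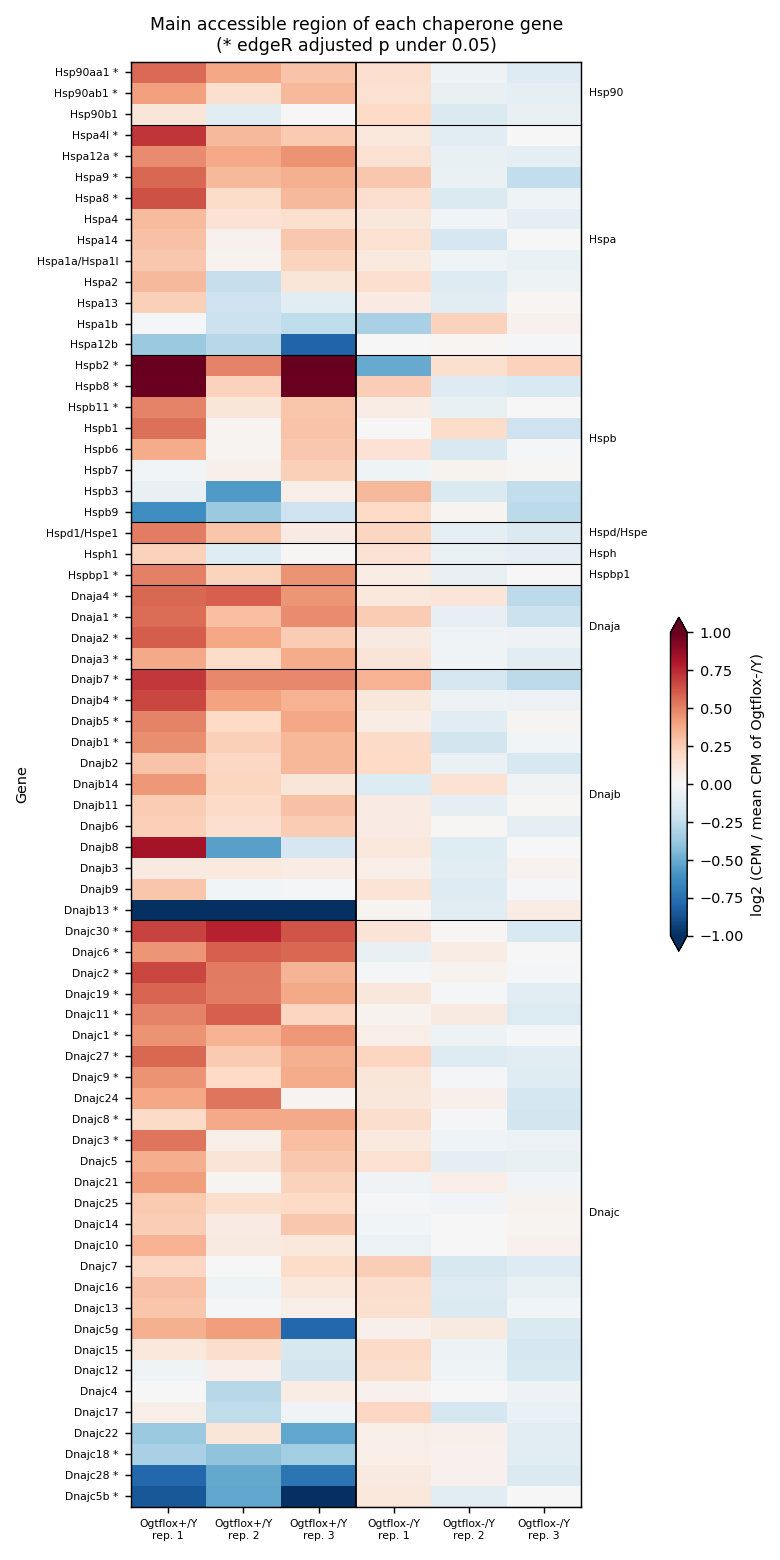
Heat map of the 69 main regions (rows, by subfamily) in the 3 Ogtflox+/Y and 3 Ogtflox-/Y libraries (columns), coloured by log2 of the CPM over the mean of Ogtflox-/Y, with the scale ending at -1 and 1 and asterisks for adjusted p under 0.05. Most Ogtflox+/Y cells of the map are red, with Hspb2 and Hspb8 paler in replicate 2, and Dnajb13, Dnajc28 and Dnajc5b blue; with library totals in place of TMM, 3 of the 28 gains were still called.

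The genes with the longest match to the Hsf1 element were not among those with a called main region (0 of 4), and their median log2 fold change was 0.26. As Hspd1 and Hspe1 share 1 main region, these genes are too few to set against the 33.2% called higher of all main regions. Of the 16 genes with the 2-unit form, 5 were called higher and 0 lower, with a median log2 fold change of 0.27. Of 41 genes with a main region and no element in any window, 15 were higher and 2 lower, with a median of 0.22. Genes without a promoter window, among them Hsp90aa1, Hsp90ab1 and Hspa8, were not searched and are in no class. Hsph1, an Hsp110-type exchange factor of Hsp70, had 70.5, 55.2 and 60.4 CPM in the Ogtflox+/Y libraries, against 66.3, 57.3 and 56.4 CPM in the Ogtflox-/Y libraries at chr5:149636209-149636890. The groups overlapped (log2 fold change 0.05 ± 0.10, edgeR adjusted p = 0.743). Its other 2 gene-end regions, both weaker, were called higher (log2 fold change 0.64 ± 0.15 and 0.77 ± 0.25). Hspd1 and Hspe1 share 1 main region at chr1:55088030-55088430, where the bounds of these genes overlap. It had 54.4, 46.2 and 40.3 CPM in the Ogtflox+/Y libraries, against 44.2, 35.7 and 34.6 CPM in the Ogtflox-/Y libraries. Most Ogtflox+/Y libraries were above the Ogtflox-/Y libraries, but Ogtflox+/Y replicate 3 lay under Ogtflox-/Y replicate 1 (log2 fold change 0.31 ± 0.12, edgeR adjusted p = 0.0600). Without Ogtflox+/Y replicate 3 (0.0277) or Ogtflox-/Y replicate 1 (0.0264) it was called.

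Hspa1a shares its main region at chr17:34971926-34972577 with the neighbouring Hspa1l, and this region had 22.5, 19.1 and 21.8 CPM in the Ogtflox+/Y libraries, against 19.97, 18.1 and 17.8 CPM in the Ogtflox-/Y libraries. The groups overlapped (log2 fold change 0.19 ± 0.11, edgeR adjusted p = 0.217). Hspa1b was less accessible per length, at 12.8 CPM per kb in Ogtflox+/Y and 14.2 in Ogtflox-/Y, against 32.4 and 28.6 CPM per kb at Hspa1a. It had 5.66, 4.91 and 4.78 CPM in the Ogtflox+/Y libraries, against 4.55, 6.67 and 5.86 CPM in the Ogtflox-/Y libraries, and again the groups overlapped (log2 fold change -0.17 ± 0.19, edgeR adjusted p = 0.528). Hspb1, the inducible small heat shock protein Hsp25 of mice, had 5.59, 3.88 and 4.65 CPM in the Ogtflox+/Y libraries, against 3.796, 4.33 and 3.31 CPM in the Ogtflox-/Y libraries. Its level was low throughout, and the groups overlapped (log2 fold change 0.30 ± 0.21, edgeR adjusted p = 0.294). A p over the threshold does not show that these regions were alike in both genotypes.

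The main region of Hspa8, the constitutive Hsp70 of neurons, stood at 218 CPM per kb in Ogtflox+/Y and 166 CPM per kb in Ogtflox-/Y. In Ogtflox+/Y this was the highest level per length of all chaperone main regions, while in Ogtflox-/Y Hsp90b1 was above it. It had 103, 75.7 and 83.4 CPM in the Ogtflox+/Y libraries, against 74.9, 60.2 and 64.6 CPM in the Ogtflox-/Y libraries at chr9:40800803-40801203. Ogtflox+/Y replicate 1 was far above the rest, and the lowest Ogtflox+/Y library lay just above the highest Ogtflox-/Y library (log2 fold change 0.40 ± 0.11, edgeR adjusted p = 0.0142). Without Ogtflox+/Y replicate 1 the value was 0.28 and the call was lost (edgeR adjusted p = 0.0562), as it was without Ogtflox-/Y replicate 2 (0.0971) or 3 (0.0698). Just inside the gene, a weaker region at chr9:40801566-40801966 differed more, with 11.7, 11.9 and 13.01 CPM in the Ogtflox+/Y libraries, against 7.97, 7.02 and 6.57 CPM in the Ogtflox-/Y libraries. There the groups stood well apart (log2 fold change 0.77 ± 0.14, edgeR adjusted p = 0.000943).

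Hsp90aa1, the inducible cytosolic Hsp90, had 62.2, 54.8 and 51.1 CPM in the Ogtflox+/Y libraries, against 46.99, 40.4 and 38.3 CPM in the Ogtflox-/Y libraries in its main region at chr12:110696305-110697394. All Ogtflox+/Y libraries were above all Ogtflox-/Y libraries (log2 fold change 0.42 ± 0.10, edgeR adjusted p = 0.00608). Hsp90ab1, its constitutive partner, had 50.9, 42.9 and 48.1 CPM in the Ogtflox+/Y libraries, against 42.5, 36.5 and 36.04 CPM in the Ogtflox-/Y libraries at chr17:45573715-45574503. The groups were separated by a narrow margin (log2 fold change 0.31 ± 0.10, edgeR adjusted p = 0.0297), and the call was lost without Ogtflox+/Y replicate 1 (0.0714) or 3 (0.0735) or Ogtflox-/Y replicate 2 (0.138) or 3 (0.133). As at Hspa8, 2 weaker regions beside it were further apart: one had a log2 fold change of 0.64 ± 0.12 and the next 0.56 ± 0.10. Of the 19 regions of the Hsp90 genes, 9 were called higher and 0 lower, with a median of 0.13, beside 15.4% higher and 12.7% lower of all regions. Of the 19, 9 lay within 1000 bp of a bound of their gene, and over all protein-coding genes 32.9% of such regions were higher. Hsp90b1, the Hsp90 of the endoplasmic reticulum, had a main region that averaged 174 CPM per kb in both Ogtflox+/Y and Ogtflox-/Y (log2 fold change 0.01 ± 0.10, edgeR adjusted p = 0.952).

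Among the Hspa genes 4 of 11 main regions were higher and 0 lower, beside 33.2% and 8.91% of all main regions. Hspa4l, an Hsp110-type relative, had 37.3, 28.5 and 27.2 CPM in the Ogtflox+/Y libraries, against 24.4, 21.1 and 22.6 CPM in the Ogtflox-/Y libraries at chr3:40745206-40745606. The groups did not overlap (log2 fold change 0.45 ± 0.12), the call was lost without Ogtflox-/Y replicate 2 (edgeR adjusted p = 0.0650), and 6 of its 14 regions were called higher and 0 lower. Hspa12a, a divergent member expressed in brain, had 42.8, 40.1 and 42.1 CPM in the Ogtflox+/Y libraries, against 34.3, 29.3 and 28.99 CPM in the Ogtflox-/Y libraries at chr19:58943423-58943823, inside the bounds of Eno4 as well. This main region was higher in all Ogtflox+/Y libraries (log2 fold change 0.44 ± 0.10), whereas of its 29 regions 5 were higher and 5 lower. The largest loss of any chaperone region was one of these, at chr19:58906662-58907062 within the gene, with 0.604, 1.42 and 0.398 CPM in the Ogtflox+/Y libraries, against 2.35, 2.81 and 2.36 CPM in the Ogtflox-/Y libraries. It was low everywhere, and lower in all Ogtflox+/Y libraries (log2 fold change -1.67 ± 0.35). Hspa9, the mitochondrial Hsp70, was called higher at its main region (log2 fold change 0.43 ± 0.12), but not without Ogtflox-/Y replicate 2 (edgeR adjusted p = 0.0652) or 3 (0.0922). A weak region of it had 2.64, 2.296 and 2.32 CPM in the Ogtflox+/Y libraries, against 0.3796, 0.819 and 0.851 CPM in the Ogtflox-/Y libraries, which were separate groups (log2 fold change 1.74 ± 0.30).

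All 4 Dnaja main regions were called higher, beside 33.2% of all main regions, but 4 regions are too few to set against that share. Dnaja1, a cytosolic partner of Hsp70, had 53.9, 45.2 and 50.7 CPM in the Ogtflox+/Y libraries, against 43.7, 34.6 and 31.5 CPM in the Ogtflox-/Y libraries at chr4:40722213-40722613, near the bound of Aptx too. The groups lay next to each other without overlap (log2 fold change 0.46 ± 0.12, edgeR adjusted p = 0.00708), and without Ogtflox-/Y replicate 3 the call was lost (0.0605). Dnaja4 had 23.9, 24.3 and 21.7 CPM in the Ogtflox+/Y libraries, against 17.2, 17.4 and 13.4 CPM in the Ogtflox-/Y libraries at chr9:54699449-54699849, over its promoter shown above. These groups were well apart (log2 fold change 0.54 ± 0.12, edgeR adjusted p = 0.00329). Dnaja2 (log2 fold change 0.43 ± 0.11) and Dnaja3, the mitochondrial member (0.32 ± 0.10), were higher by less, and the call of Dnaja3 was lost without Ogtflox+/Y replicate 3 or Ogtflox-/Y replicate 2 or 3 (edgeR adjusted p from 0.0702 to 0.119). One further region of Dnaja3, at chr16:4702704-4703104, had 5.44, 4.196 and 5.51 CPM in the Ogtflox+/Y libraries, against 0.987, 1.13 and 1.09 CPM in the Ogtflox-/Y libraries. Every Ogtflox+/Y library exceeded every Ogtflox-/Y library several times over (log2 fold change 2.22 ± 0.24, edgeR adjusted p = 6.03e-06). With library totals none of the 4 Dnaja main regions was called.

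Of 12 Dnajb main regions 4 were higher and 1 lower, beside 33.2% and 8.91% of all main regions. Dnajb1, the inducible cytosolic J protein (Hsp40), had 70.3, 59.9 and 64.1 CPM in the Ogtflox+/Y libraries, against 58, 44.7 and 49.9 CPM in the Ogtflox-/Y libraries at chr8:83607894-83608294. The lowest Ogtflox+/Y library was just above the highest Ogtflox-/Y library (log2 fold change 0.35 ± 0.10, edgeR adjusted p = 0.0174), and the call was lost without Ogtflox-/Y replicate 2 (0.133) or 3 (0.0736). Dnajb4, another cytosolic J protein, had 54.5, 45.3 and 43.5 CPM in the Ogtflox+/Y libraries, against 36.97, 33.01 and 32.8 CPM in the Ogtflox-/Y libraries at chr3:152210157-152210557, which also overlaps Fubp1. No overlap was seen (log2 fold change 0.48 ± 0.10). The region standing for Dnajb7 had 40.7, 34.8 and 34.7 CPM in the Ogtflox+/Y libraries, against 31.8, 22.2 and 20.9 CPM in the Ogtflox-/Y libraries and separate groups (log2 fold change 0.57 ± 0.13). But it lies 7100 bp outside Dnajb7 and overlaps St13, an Hsp70 co-chaperone gene. It is the main region of St13 as well, and is counted again among the co-chaperones below.

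Dnajb13, which encodes a J protein of motile cilia and sperm flagella, moved the other way. Its main region over the promoter shown above, chr7:100514572-100514972, had 2.11, 2.77 and 3.52 CPM in the Ogtflox+/Y libraries, against 8.27, 7.57 and 8.56 CPM in the Ogtflox-/Y libraries. All Ogtflox+/Y libraries were under all Ogtflox-/Y libraries by a wide margin (log2 fold change -1.52 ± 0.20, edgeR adjusted p = 5.83e-05), and the call held without each library. Dnajb6, a suppressor of protein aggregation with a 3-unit element, had a main region that was not called (log2 fold change 0.22 ± 0.10, edgeR adjusted p = 0.0989). A region beside it at chr5:29736173-29736573 was higher, with 9.52, 9.74 and 9.76 CPM in the Ogtflox+/Y libraries, against 5.39, 5.66 and 5.11 CPM in the Ogtflox-/Y libraries, and the groups stood apart (log2 fold change 0.84 ± 0.16). Inside the same gene a weak region at chr5:29755864-29756264 had 0.982, 0.95 and 0.863 CPM in the Ogtflox+/Y libraries, against 3.34, 1.95 and 2.13 CPM in the Ogtflox-/Y libraries. That one was lower in all Ogtflox+/Y libraries (log2 fold change -1.36 ± 0.30).

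The Dnajc genes, which include J proteins of synapse, mitochondria and endoplasmic reticulum, had 10 higher and 3 lower of 28 main regions. The shares over all main regions were 33.2% and 8.91%. Dnajc30, a mitochondrial J protein, had 44.03, 47.02 and 42.6 CPM in the Ogtflox+/Y libraries, against 30.1, 27.7 and 24.8 CPM in the Ogtflox-/Y libraries at chr5:135063974-135064374. The groups were far apart (log2 fold change 0.70 ± 0.10, edgeR adjusted p = 0.000121), and the call held under all 4 scalings and without each library, but the region also overlaps Bud23, a neighbouring gene. Dnajc6, auxilin, had 22.9, 25.5 and 25.1 CPM in the Ogtflox+/Y libraries, against 16.02, 17.7 and 16.8 CPM in the Ogtflox-/Y libraries at chr4:101550584-101550984. Again no library of one genotype reached the other (log2 fold change 0.54 ± 0.11), and 5 of its 31 regions were higher and 2 lower. Dnajc5, the cysteine string protein, had 56.6, 48.1 and 52.98 CPM in the Ogtflox+/Y libraries, against 48.96, 41.3 and 41.8 CPM in the Ogtflox-/Y libraries at chr2:181520180-181520580. Ogtflox+/Y replicate 2 fell within the Ogtflox-/Y range (log2 fold change 0.26 ± 0.10, edgeR adjusted p = 0.0589). It was called without that library (0.0239) or without Ogtflox-/Y replicate 1 (0.0294).

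Dnajc5b, a cysteine string protein known from testis, had 5.89, 7.36 and 5.24 CPM in the Ogtflox+/Y libraries, against 11.4, 9.75 and 10.6 CPM in the Ogtflox-/Y libraries at chr3:19562472-19562872. It was lower in all Ogtflox+/Y libraries (log2 fold change -0.78 ± 0.16, edgeR adjusted p = 0.00223). Dnajc28 had 11.3, 13.7 and 11.8 CPM in the Ogtflox+/Y libraries, against 20.9, 20.1 and 17.7 CPM in the Ogtflox-/Y libraries at chr16:91618777-91619177. It too had separate groups (log2 fold change -0.67 ± 0.12, edgeR adjusted p = 0.000874). Dnajc18 was lower by less (log2 fold change -0.36 ± 0.10), and was not called without Ogtflox-/Y replicate 2 (edgeR adjusted p = 0.0712). Dnajc1, an endoplasmic reticulum membrane J protein, was higher at its main region (log2 fold change 0.41 ± 0.09), while 5 of its other 14 regions were lower and 0 higher. The most changed of these had 1.13, 0.95 and 0.465 CPM in the Ogtflox+/Y libraries, against 1.898, 1.99 and 2.46 CPM in the Ogtflox-/Y libraries at chr2:18352599-18352999, lower in all Ogtflox+/Y libraries (log2 fold change -1.34 ± 0.32). At chr2:18262195-18262595 it had 0.831, 0.633 and 1.06 CPM in the Ogtflox+/Y libraries, against 1.97, 2.19 and 1.99 CPM in the Ogtflox-/Y libraries, and again the groups were separate (log2 fold change -1.27 ± 0.30).

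**Figure D2:**
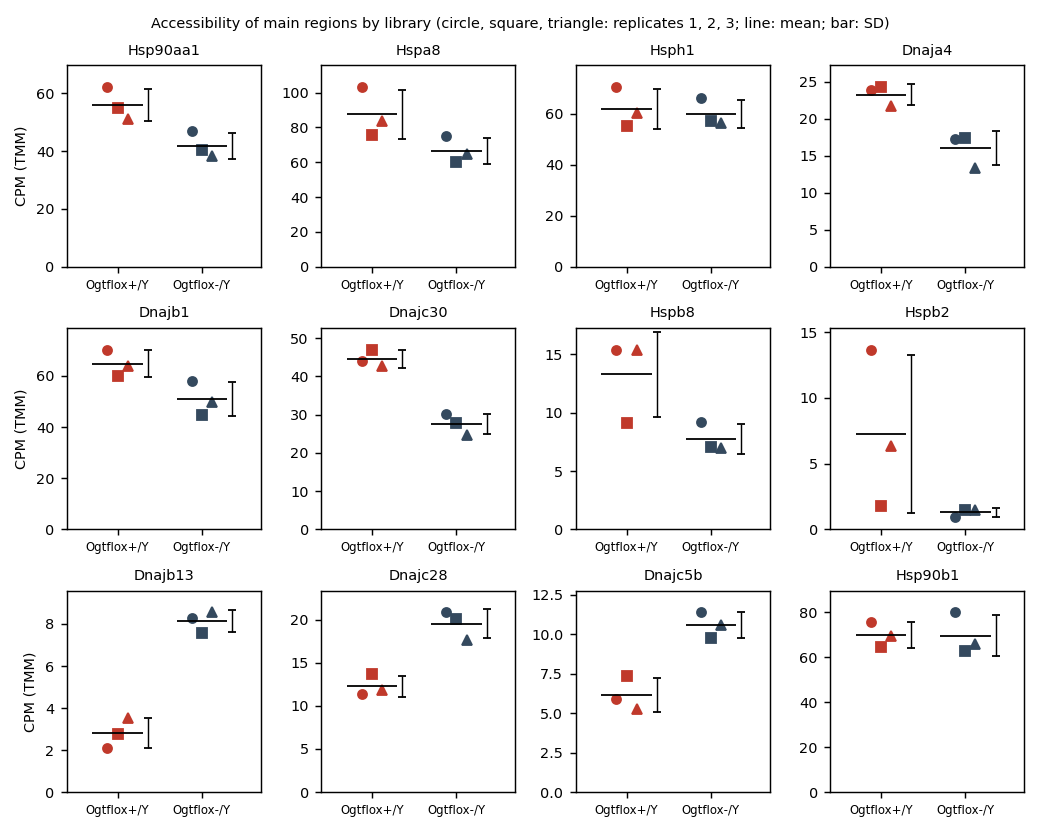
CPM of 12 main regions in each library, with Ogtflox+/Y left of Ogtflox-/Y, the mean as a line and the SD as a bar (n = 3 each). Hspa8 and Hsp90aa1 are higher in every Ogtflox+/Y library, Hsph1 and Hsp90b1 overlap, Hspb2 spreads from 1.82 to 13.7 CPM within Ogtflox+/Y, and Dnajb13, Dnajc28 and Dnajc5b are lower in every Ogtflox+/Y library.

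Of the 5 largest gains among all chaperone regions, 3 lay near small heat shock protein genes, neighbouring regions beside Hspb2 and a region 2442 bp outside Hspb6. Over all Hspb regions 20.8% were called higher, beside 21.8% of all chaperone regions, so this is no result about small heat shock protein genes in particular. Hspb2, a small heat shock protein known from muscle, lies head to head with Cryab, and its main region at chr9:50752714-50753114 is 360 bp outside the bounds of Hspb2 and inside those of Cryab. It had 13.7, 1.82 and 6.31 CPM in the Ogtflox+/Y libraries, against 0.911, 1.44 and 1.51 CPM in the Ogtflox-/Y libraries. Replicates 1 and 3 of Ogtflox+/Y were high, and replicate 2 was close to the Ogtflox-/Y libraries (log2 fold change 2.45 ± 0.45, edgeR adjusted p = 0.000851). The next region, chr9:50753958-50754358, also inside Cryab, had the same order within Ogtflox+/Y, with 6.95, 1.27 and 3.05 CPM in the Ogtflox+/Y libraries, against 0.683, 0.507 and 0.709 CPM in the Ogtflox-/Y libraries (log2 fold change 2.58 ± 0.45). The main region of Cryab, chr9:50746275-50746675, lies on the other side of Hspb2 and was lower in Ogtflox+/Y (log2 fold change -0.62 ± 0.17). Regions inside the bounds of Cryab thus moved both ways.

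Hspb8, which works with Bag3 in clearing misfolded proteins, had 15.4, 9.104 and 15.4 CPM in the Ogtflox+/Y libraries, against 9.19, 7.101 and 6.95 CPM in the Ogtflox-/Y libraries in its main region at chr5:116422860-116423260. Replicates 1 and 3 of Ogtflox+/Y were again high, while replicate 2 lay within the Ogtflox-/Y range (log2 fold change 0.80 ± 0.18, edgeR adjusted p = 0.00384). Of its 8 regions 4 were called higher and 0 lower. One just beyond the other bound of the gene, chr5:116407913-116408313, had 4.08, 4.59 and 4.12 CPM in the Ogtflox+/Y libraries, against 1.21, 1.52 and 1.56 CPM in the Ogtflox-/Y libraries. At that region replicate 2 was as high as the others, and the groups were well apart (log2 fold change 1.55 ± 0.23). Near Hspb6, a small heat shock protein of muscle, a region at chr7:30557885-30558285 and inside Lin37 had 5.89, 4.12 and 7.502 CPM in the Ogtflox+/Y libraries, against 0.911, 1.52 and 0.899 CPM in the Ogtflox-/Y libraries. All Ogtflox+/Y libraries were above all Ogtflox-/Y libraries there (log2 fold change 2.35 ± 0.28), but the main region of Hspb6 was not called (0.24 ± 0.11).

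Within Ogtflox+/Y, the glial markers Aqp4 and Sox10, chosen after their values were seen, had the same order of libraries as the main regions of Hspb2 and Hspb8. The main region of Aqp4, the water channel of astrocytes, had 11.2, 3.17 and 9.56 CPM in the Ogtflox+/Y libraries, against 2.35, 1.83 and 2.18 CPM in the Ogtflox-/Y libraries. Sox10, a transcription factor of oligodendrocytes, had 4.76, 1.19 and 1.79 CPM in the Ogtflox+/Y libraries, against 0.835, 0.7804 and 0.662 CPM in the Ogtflox-/Y libraries. Both were highest in Ogtflox+/Y replicate 1 and lowest, within that genotype, in replicate 2. Olig2, also called higher, had the same order, while Gfap, Gja1 and Slc1a2 were lowest in replicate 2 but highest in replicate 3, and Mog was lowest in replicate 3. The order was not particular to glial markers: the main region of Aldh1a1, a marker of dopaminergic neurons, had 6.72, 1.19 and 5.38 CPM in the Ogtflox+/Y libraries, against 2.201, 1.33 and 1.47 CPM in the Ogtflox-/Y libraries. Summed main regions of every chaperone subfamily except Hspd/Hspe had this order too. In the Ogtflox+/Y libraries the sums were 189, 162 and 169 CPM for Hsp90 and 540, 430 and 469 CPM for Hspa. For Dnajc they were 921, 829 and 848 CPM. Over the lists, 4 of 8 astrocyte markers were higher and 1 lower, with summed levels of 74.4 to 97.9 CPM in Ogtflox+/Y and 67.8 to 75.8 CPM in Ogtflox-/Y. Of 8 oligodendrocyte markers 3 were higher and 1 lower, with sums of 48.1 to 85.7 CPM in Ogtflox+/Y and 65.6 to 69.8 CPM in Ogtflox-/Y. With Ogtflox+/Y replicate 2 alone against the Ogtflox-/Y libraries, the log2 fold change was 0.43 at Hspb2 (edgeR adjusted p = 0.556) and 0.24 at Hspb8 (edgeR adjusted p = 0.511). The part of these cell types in the gains was not tested. By the same setting Dnajc30 (0.76), Dnajb13 (-1.57) and Dnajc28 (-0.53) were still called, and Dnajc5b (-0.53) was not.

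Over all 486 chaperone regions, each of which passed the filter on low counts, 106 were higher (21.8%) and 52 lower (10.7%), beside 15.4% and 12.7% of all regions. More of them lay within 1000 bp of a bound of any protein-coding gene (170 of 486, against 22558 of 191693 of all regions). Of these 170, 55 were higher (32.4%) and 10 lower (5.88%), with a median log2 fold change of 0.20. Within 1000 bp of a bound of their own gene, 45 of 119 were higher (37.8%) and 6 lower (5.04%), where 32.9% and 6.93% of the 22558 such regions of all protein-coding genes were. Their median log2 fold change was 0.25 and that of all gene-end regions 0.22. By either class the shares and the shift were near those of gene-end regions in general and are no result about chaperone genes in particular. With library totals both medians were below 0, at -0.01 and -0.05. Of the other 367 chaperone regions 61 were higher and 46 lower, with a median of -0.04. By gene, 27 had higher regions only, 6 lower regions only, 24 both and 14 neither. The same counts were not made over all protein-coding genes, so they are no result about chaperone genes in particular.

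By subfamily, the gene-end median log2 fold change with TMM was 0.31 for Hsp90 (5 of 9 higher), 0.22 for Hspa (7 of 21), 0.27 for Hspb (5 of 14), 0.64 for Hsph (2 of 3), 0.31 for the single Hspd/Hspe region (not called), 0.40 for that of Hspbp1 (called), 0.43 for Dnaja (5 of 7), 0.25 for Dnajb (7 of 18) and 0.21 for Dnajc (13 of 45). Regions called lower numbered 1 in Hspb, 3 in Dnajb and 2 in Dnajc, and 0 in the others. Gene-end regions of all protein-coding genes had a median of 0.22, with 32.9% higher and 6.93% lower, and all regions had 15.4% higher and 12.7% lower. Over all regions of a subfamily, the Dnajc genes stood at a median of 0.00 with 39 higher and 31 lower of 225, and the Hspa genes at 0.09 with 21 higher and 5 lower of 90. The Hspb median was 0.09 (10 higher and 5 lower of 48), the Dnajb median 0.09 (15 and 9 of 60) and the Dnaja median 0.13 (8 and 1 of 22). Hsph1 had 2 higher and 1 lower of 10 regions, Hspbp1 2 higher of 7, and Hspd1 with Hspe1 none of 5. The main region of Hspbp1 had 54.9, 45.2 and 52.7 CPM in the Ogtflox+/Y libraries, against 40.7, 36.7 and 38.5 CPM in the Ogtflox-/Y libraries, with separate groups (log2 fold change 0.40 ± 0.10). With library totals the medians over all regions of every subfamily except Hspbp1 were below 0. These are descriptions: regions of a gene are not replicates, and subfamilies were not tested against each other.

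**Figure D3:**
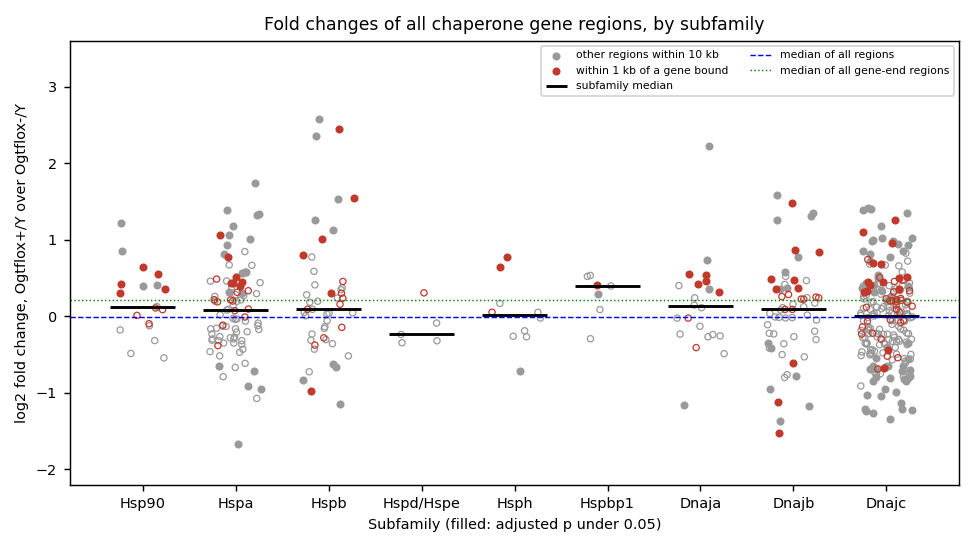
Log2 fold change, Ogtflox+/Y over Ogtflox-/Y, of each chaperone region by subfamily (points; red within 1000 bp of a gene bound, filled where adjusted p was under 0.05), with subfamily medians as bars and the medians of all regions (dashed) and all gene-end regions (dotted) as lines. Subfamily medians lie from -0.24 (Hspd/Hspe, 5 regions) to 0.39 (Hspbp1, 7 regions), and with library totals all but that of Hspbp1 are below 0.

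Other genes of the chaperone system were described by lists at their main regions, and are to be read against the 33.2% higher, 8.91% lower and median of 0.20 of all main regions. Of the heat shock factors and their binding protein, 2 of 5 were higher and 0 lower, with a median of 0.21. Hsf1, the master regulator of the heat shock response, had 39.3, 33.1 and 39.8 CPM in the Ogtflox+/Y libraries, against 29.4, 28.3 and 28.9 CPM in the Ogtflox-/Y libraries (log2 fold change 0.38 ± 0.10). Hsf4 had 53.2, 56.05 and 62.6 CPM in the Ogtflox+/Y libraries, against 36.1, 38.2 and 39.97 CPM in the Ogtflox-/Y libraries (log2 fold change 0.59 ± 0.10). In both genes all Ogtflox+/Y libraries were above all Ogtflox-/Y libraries. Of 21 co-chaperones 11 were higher and 0 lower, with a median of 0.28, and among them were the Hsp90 partners Fkbp4 (log2 fold change 0.57 ± 0.09) and Ptges3 (0.39 ± 0.10), the ubiquitin ligase Stub1 (0.43 ± 0.10) and Bag3 (0.36 ± 0.11). Of the 8 subunits of the cytosolic chaperonin 4 were higher and 0 lower, with a median of 0.25. Of 11 other chaperones 5 were higher, with Trap1, the mitochondrial Hsp90, at 0.74 ± 0.11, and 2 were lower, Cryab and the mitochondrial disaggregase Clpb (-0.42 ± 0.10), with a median of -0.03.

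Scaling other than by TMM lowered the median of chaperone gene-end regions, which was 0.14 with reads in regions, 0.064 with loess curves and -0.013 with library totals, against 0.25 with TMM. With reads in regions and library totals the shift is common to all regions, and it takes calls from the gains and not from the losses. Loess curves change fold changes by accessibility. Over all regions they called 26211 higher and 22588 lower, both fewer than the 29579 and 24271 with TMM. The median over all Hsp90 regions was 0.13 with either. Of the 28 higher main regions, 22 were called when scaled by reads in regions, 8 by loess curves over accessibility and 3 by library totals. The 3 called under all 4 scalings were Dnajc30, Hspb2 and Hspb8. All 4 lower main regions, Dnajb13, Dnajc28, Dnajc5b and Dnajc18, were called under all 4, which a downward shift favours. Leaving out each library in turn, 14 of the 28 gains and 3 of the 4 losses were called every time, and Dnajc18 was not. When Ogtflox+/Y replicate 1 was grouped by its title, 0 regions were called anywhere by edgeR, with 55 of 486 chaperone regions at an unadjusted p under 0.05.

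**Figure D4:**
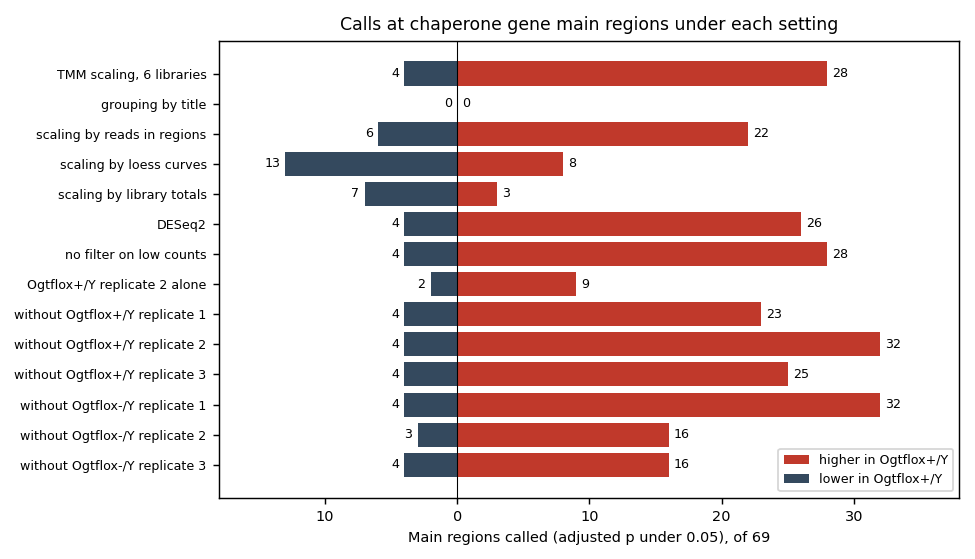
Number of the 69 main regions called higher (right, red) or lower (left, dark) in Ogtflox+/Y under each setting, by edgeR unless named. Gains range from 0 (grouping by title) to 32 and losses from 0 to 13; DESeq2 called 26 higher and 4 lower.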

How the data were processed

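The authors deposited, per the file headers, for each of 193148 regions in 6 libraries, 3 values: a score, an RPKM value and a count of reads. The build mm10 and the tools BWA, MACS2, Picard, SAMtools 1.9, Trimmomatic and FastQC appear in the submitters' processing notes, with no roles. How reads were counted and shifted for the transposase, and how regions were set, is not given in the sources used here, and the labels' protocol names a DNA library kit without a transposition step. The deposited counts were used without change. The deposited RPKM values gave library totals, and the deposited score, a count scaled to a common total, was not tested. Groups followed the genotype label. Counts were tested with edgeR 4.0.16 in R 4.3.3 (quasi-likelihood test, TMM, the package's filter on low counts, Benjamini-Hochberg adjustment over 191693 regions), which was tested on simulated data. Gene bounds and promoter windows came from RefSeq GRCm38.p6. No 2 libraries of a group agreed within sampling noise (chi-square of 1.84 to 2.91 per degree of freedom). The members, lists and named genes were chosen with earlier results of these data known. Values in every library are given for the main regions of 12 well-known members, the 2 most changed called main regions per direction and subfamily, and the 5 most changed regions per direction. Other regions named beside these, among them those just next to the main regions, were chosen after their values were seen. Alternatives were DESeq2 1.42.0, no filter, scaling by loess curves (limma 3.58.1), by reads in regions or by library totals, each library left out, grouping by title, windows of 2000 bp and gene ends of 3000 bp. Ogtflox+/Y replicate 2 alone was added after seeing the data.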

Additional observations from a re-analysis of the deposited data

How the results depend on the processing

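No paired analysis was possible because the numbers in the titles are not shared between the genotypes. DESeq2 and the edgeR fit without a filter kept the direction of every named region and every count of chaperone regions within 1.5 times, while DESeq2 called 14862 regions lower over the whole table. Grouping by title called 0 regions higher and 0 lower in all sets (23047 of all regions had an unadjusted p under 0.05 by edgeR), reversed the main region of Hspb2 (-0.067) and gave medians of 0.13 at gene ends, -0.022 for Hspd/Hspe and 0.15 for Hspbp1.

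With library totals 13135 of all regions were higher and 47189 lower, 37 and 118 of the chaperone regions, and 12 and 13 of those at gene ends. The median was then -0.21 over all chaperone regions, -0.013 at gene ends, -0.14 for Hsp90, -0.18 for Hspa, -0.17 for Hspb, -0.50 for Hspd/Hspe, -0.25 for Hsph, 0.14 for Hspbp1, -0.13 for Dnaja, -0.18 for Dnajb and -0.25 for Dnajc. With reads in regions 79 chaperone regions were lower, and medians were -0.064 over all, 0.015 for Hsp90, -0.027 for Hspa, -0.35 for Hspd/Hspe, 0.015 for Dnaja, -0.021 for Dnajb and -0.11 for Dnajc. With loess curves 26 gene-end regions were higher and 14 lower, the main regions of Dnajb5 (-0.0032), Dnajc3 (-0.023) and Hspb11 (-0.037) reversed, and medians were -0.0092 over all, 0.064 at gene ends, 0.0026 for Hspa, 0.089 for Hspbp1, -0.0074 for Dnajb and -0.061 for Dnajc.

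With Ogtflox+/Y replicate 2 alone, an edgeR fit that assumes the lone library varies like the others, 11371 of all regions were higher and 10761 lower, 42 and 22 of the chaperone regions and 21 of those at gene ends higher. Its medians were 0.0030 over all, -0.038 for Hspb, 0.091 for Hspbp1 and -0.047 for Dnajc. Leaving out each library, all regions called higher numbered 19100 to 29969 and lower 14676 to 25007, chaperone regions 61 to 109 and 32 to 52, and gene ends 27 to 49 and 3 to 6. Medians ranged from 0.04 to 0.07 over all chaperone regions, 0.23 to 0.30 at gene ends, 0.10 to 0.23 for Hsp90, 0.048 to 0.11 for Hspa, 0.07 to 0.14 for Hspb, -0.34 to -0.038 for Hspd/Hspe, -0.08 to 0.03 for Hsph, 0.20 to 0.46 for Hspbp1, 0.039 to 0.23 for Dnaja, 0.05 to 0.14 for Dnajb and -0.03 to 0.04 for Dnajc. The causes were not tested. Depth limits the lowest levels, where 3 reads equal at most 0.237 CPM.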
